A study of Mus musculus with 54 samples.

Results

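The genes described here were 9 transcripts used as markers of alternative (IL-4) activation of mouse macrophages: Chil3, Chil4, Retnla, Mrc1, Mgl2, Clec10a, Cdh1, Egr2 and Tgm2. They were picked by symbol, and all 9 were found among the 39179 gene rows of each count table. RNA was measured in thioglycolate-elicited peritoneal exudate cells of C57BL/6 mice aged 8 to 20 weeks, taken by lavage and left unpolarized (M0), given IL-4 at 10 ng/ml (M2), or given LPS at 100 ng/ml together with IFN-γ at 50 ng/ml (M1). In the first experiment (SE50; 50-base single-end reads) M0, M1 and M2 cells of 3 mice were harvested after 24 h, and each sample was sequenced as 2 technical replicates, which were summed here. In the second experiment (PE150; 150-base paired-end reads) 12 groups of 3 libraries held M0, M1 and M2 cells without transfection, the same 3 treated with transfection reagent alone (mock), and M2 cells given a negative-control siRNA pool (neg siPool) or siRNA pools against E2f1, Myc, Pparg, Stat6 or all 4 (combined). The transfected cells were polarized for 24 h, then kept without IL-4 and harvested 48 h after transfection. The methods put sequencing of cells without transfection at 24 h after polarization and do not say whether this covers the untransfected PE150 groups, so no time is given for them here. Read length and sequencing site differed between the experiments together, for the transfected groups time did too, and these cannot be told apart. All groups share the C57BL/6 strain and the thioglycolate elicitation, RNA of the whole culture was used, and an siRNA pool lowers a transcript without removing the gene.

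IL-4 binds a receptor that contains IL-4Rα and activates the kinases JAK1 and JAK3 and the transcription factor STAT6, which switches on a set of macrophage genes linked to helminth defence, tissue repair and the limiting of inflammation. Chil3 (Ym1) and Chil4 (Ym2) are secreted chitinase-like lectins, and Retnla (Fizz1, RELMα) is a small secreted cysteine-rich protein. Mrc1 (the mannose receptor, CD206), Mgl2 (CD301b) and Clec10a (Mgl1, CD301a) are C-type lectin receptors of the cell surface. Cdh1 (E-cadherin) is an adhesion molecule linked to macrophage fusion, Egr2 is a zinc finger transcription factor, and Tgm2 is a protein-crosslinking transglutaminase.

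Positions are those of GRCm38 with the GENCODE M21 annotation. Chil3 (ENSMUSG00000040809) lies on the minus strand at chr3:106147554-106167564, and Chil4 (ENSMUSG00000063779) lies 33.9 kb away on the same strand at chr3:106201490-106219507. Mgl2 (ENSMUSG00000040950, chr11:70130329-70137550) and Clec10a (ENSMUSG00000000318, chr11:70156197-70170834) are neighbours on the plus strand, with 18.6 kb between them. The others are Retnla (ENSMUSG00000061100, chr16:48842551-48844461, plus strand), Mrc1 (ENSMUSG00000026712, chr2:14229392-14332057, plus strand), Cdh1 (ENSMUSG00000000303, chr8:106603351-106670246, plus strand), Egr2 (ENSMUSG00000037868, chr10:67535475-67542188, plus strand) and Tgm2 (ENSMUSG00000037820, chr2:158116402-158146436, minus strand). Both neighbouring pairs are paralogs, so reads can be counted for the wrong member.

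The coding sequences of Chil3 and Chil4 are shown first because their likeness bears on every value of the pair. Over the 1194 aligned coding bases they differed at 55 and were 95.4% identical. Their first 120 coding bases, counted from the A of the start codon, follow from the GENCODE M21 transcripts, with the bases that differ in capitals:
Chil3: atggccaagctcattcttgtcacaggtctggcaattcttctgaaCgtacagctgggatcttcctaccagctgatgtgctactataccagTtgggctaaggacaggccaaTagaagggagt
Chil4: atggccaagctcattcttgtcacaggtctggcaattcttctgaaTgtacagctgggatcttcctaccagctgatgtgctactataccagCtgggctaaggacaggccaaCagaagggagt
In this stretch the 3 differences from Chil3 to Chil4 are C45T, T90C and T110C. Of the 1490 windows of 50 bases in the main Chil3 transcript, 275 (18.5%) occur unchanged in a Chil4 transcript and 855 (57.4%) occur with at most 2 mismatches. Of its 1390 windows of 150 bases, 0 occur unchanged and 73 (5.25%) occur with at most 2 mismatches. Mgl2 and Clec10a were 91.7% identical over 912 aligned coding bases, and 15.7% of the 50-base windows and 2.37% of the 150-base windows of the main Mgl2 transcript occur unchanged in a Clec10a transcript.

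The 250 bases before the start of Chil3, Chil4 and Retnla are shown because, of the markers with a promoter entry, they held the letters searched for. RefSeq promoters (GRCm38.p6) were matched for 6 of the 9 markers: Chil3, Chil4, Retnla, Mrc1, Mgl2 and Egr2. Clec10a, Cdh1 and Tgm2 were not matched. The letters searched were TTC and GAA with any 4 bases between them, the spacing that STAT6 is known to prefer, and with any 3 bases between them, the spacing of other STAT factors. Both read the same on both strands, and no match of one overlapped a match of the other here. The outer 3 bases on each side of a match are in capitals.
Chil3 (chr3:106167565-106167814, minus strand): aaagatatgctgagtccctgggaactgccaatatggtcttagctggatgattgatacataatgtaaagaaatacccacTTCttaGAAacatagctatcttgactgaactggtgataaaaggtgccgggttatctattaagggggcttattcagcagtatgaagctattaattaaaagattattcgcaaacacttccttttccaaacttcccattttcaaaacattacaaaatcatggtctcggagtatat
Chil4 (chr3:106219480-106219729, minus strand): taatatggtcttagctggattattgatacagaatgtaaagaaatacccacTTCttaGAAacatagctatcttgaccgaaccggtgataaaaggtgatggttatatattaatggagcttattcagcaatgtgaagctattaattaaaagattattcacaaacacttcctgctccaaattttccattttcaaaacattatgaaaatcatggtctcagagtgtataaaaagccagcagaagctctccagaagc
Retnla (chr16:48842359-48842608, plus strand): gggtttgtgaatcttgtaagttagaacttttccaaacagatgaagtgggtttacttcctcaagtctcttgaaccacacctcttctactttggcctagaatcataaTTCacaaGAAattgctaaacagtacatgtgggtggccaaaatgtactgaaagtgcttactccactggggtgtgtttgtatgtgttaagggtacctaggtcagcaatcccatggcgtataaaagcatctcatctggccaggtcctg
The 4-base spacing was found once, 145 bases before the start of Retnla, and in 5.85% of the 32851 promoters of the same length. The 3-base spacing was found 172 bases before the start of Chil3 and 200 bases before that of Chil4, and in 7.02% of all promoters. The RefSeq start of Chil4 lies 28 bases inside its GENCODE start, which equals the difference between both positions. All positions are counted from the RefSeq start. The RefSeq starts of Retnla, Mrc1, Mgl2 and Egr2 lie inside their GENCODE starts as well. The Retnla window ends at 48842608, past its GENCODE start at 48842551, so its last bases lie within the annotated gene. The Chil3 and Chil4 windows were 91% identical over 221 aligned bases. Mrc1, Mgl2 and Egr2 held neither run of letters in these windows. A match is a description of the letters and not a binding site.

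Depth ranged from 39577911 to 59443987 counted reads per mouse and group in SE50 and from 13421854 to 19704195 per library in PE150. Levels are given as CPM, the read count scaled to library size with TMM factors, and n = 3 per group throughout. Differences are log2 fold changes ± SE. They were tested two-sidedly with edgeR (quasi-likelihood F test), and p was adjusted by Benjamini and Hochberg's method over the 16110 genes tested in SE50 and the 14172 in PE150. A gene was called at an adjusted p under 0.05. All 7 macrophage markers, among them Adgre1, Csf1r and Lyz2, were detected in every group, and they summed to between 6211 and 18320 CPM. Each siRNA target was lower with its own pool, at 25.2% (E2f1), 38% (Myc), 21.9% (Pparg) and 27.3% (Stat6) of its mean with the neg siPool. With the combined pool the same genes were at 60.4, 39.6, 28.3 and 53.9%, and E2f1 (1.25 ± 0.13), Stat6 (0.98 ± 0.09) and Pparg (0.37 ± 0.09) were higher on the log2 scale than with their own pools, each called by edgeR. Pparg was also called lower with the Myc (65.2%), E2f1 (79.6%) and Stat6 (78.4%) pools. Markers of other cells were not evenly spread. The summed level of 5 fibroblast markers ranged from 9.4 to 34.2 CPM in SE50 and from 22.1 to 448 CPM in PE150, and that of 7 epithelial or mesothelial markers from 0.135 to 1.47 CPM and from 0.442 to 29.7 CPM. The summed level of 4 eosinophil markers ranged from 0.27 to 19.1 CPM in SE50 and from 0.61 to 46.1 CPM in PE150. Nearly all of this was Siglecf, which reached 45.8 CPM, while Epx and Prg2 stayed at or under 0.134 CPM. In bulk RNA, fewer cells of a type and less RNA per cell cannot be told apart.

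**Figure D1:**
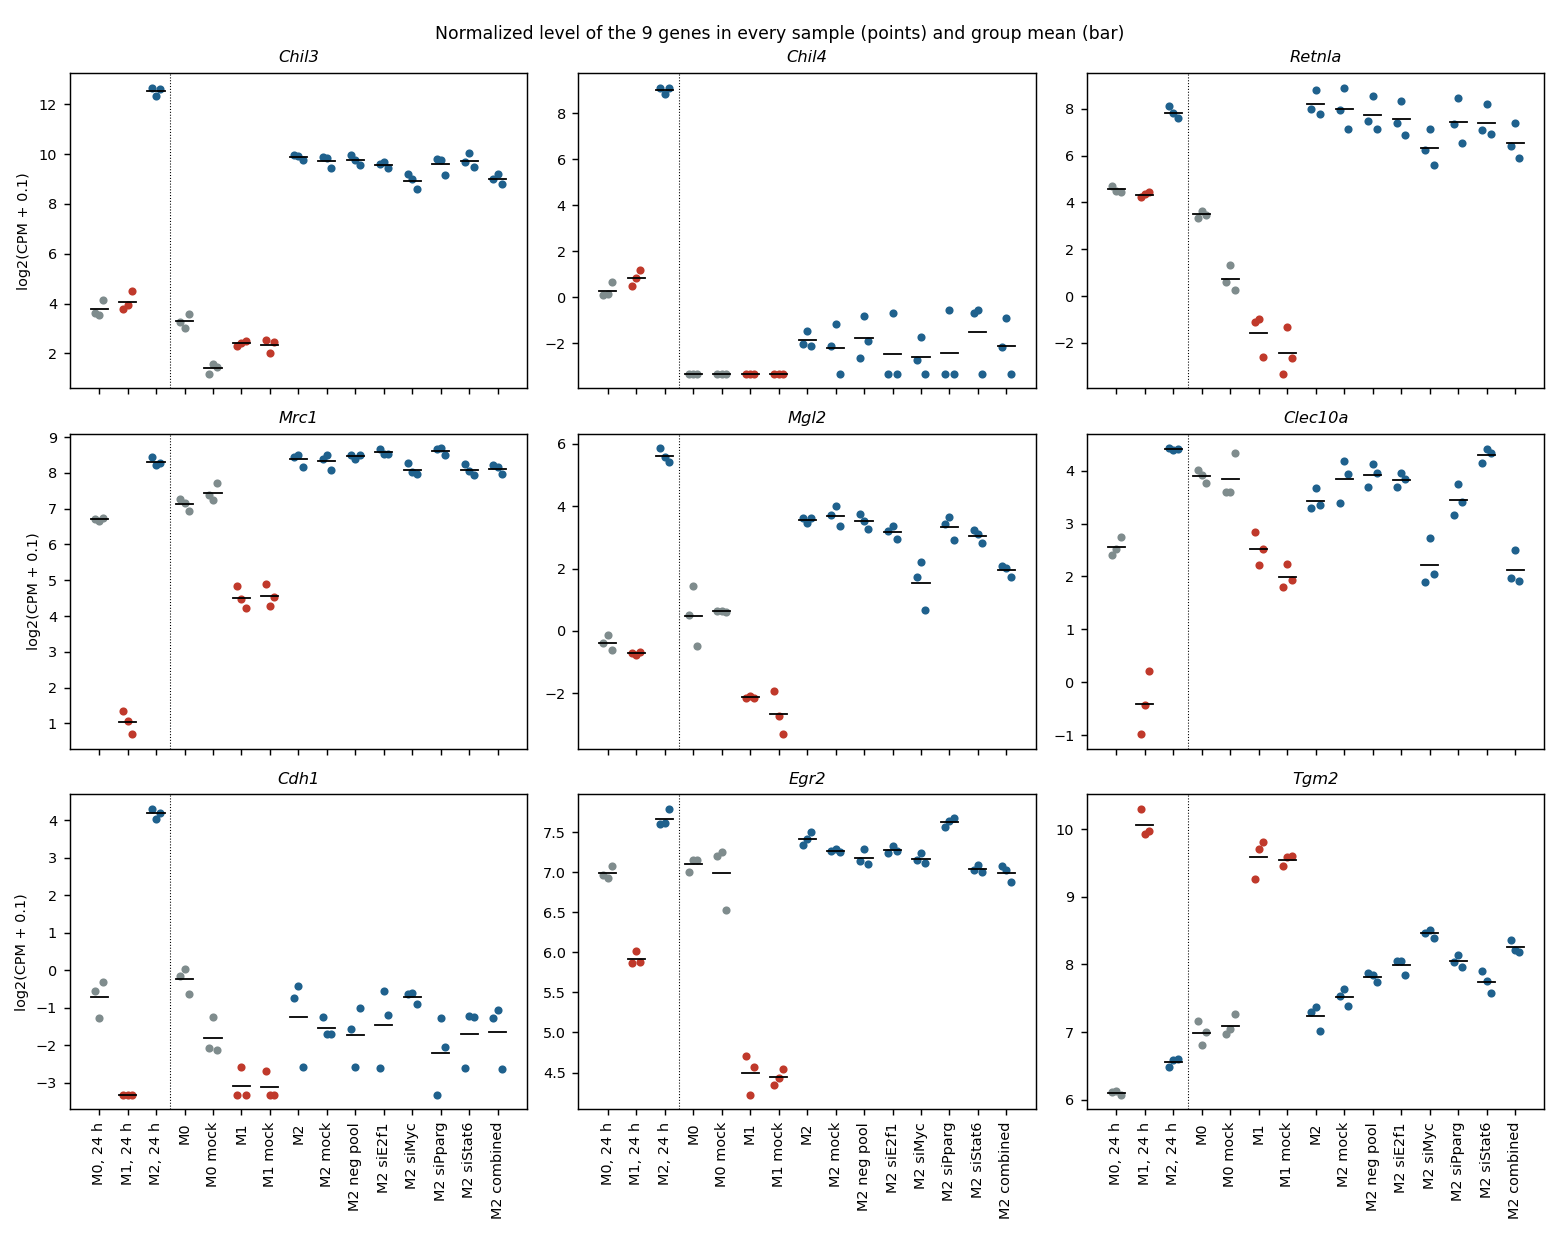
Levels of the 9 markers as log2(CPM + 0.1) in every sample of the 15 conditions (M0 grey, M1 red, M2 blue; bars are means of the 3 plotted values; the dotted line divides SE50 from PE150, which were normalized separately). At 24 h every M2 sample lies above every M0 sample in all 9 panels, and in PE150 Chil4 and Cdh1 lie near 0 CPM in all groups.

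The first question was which markers rose with IL-4 at 24 h, and by how much. Without Chil4, whose reads are in doubt, 8 of 8 markers were higher in M2 than in M0 cells, while 13.5% of all genes tested were higher. The median log2 fold change of these 8 was 2.58, against 0.000536 over all genes tested. Chil4 passed the test as well, and is set apart for the reason given with its reads. In each gene the 3 M2 samples lay above the 3 M0 samples.

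The secreted products are taken first. The level of Chil3 was 12.2, 11.4 and 17.8 CPM in the M0 samples and 6508, 5078 and 6194 CPM in the M2 samples of mice 1, 2 and 3. The log2 fold change was 8.74 ± 0.26 (adjusted p = 2.29e-09, edgeR). Per kilobase of exon, Chil3 was the most abundant of the 9 markers in M2 cells, at 3632 ± 461 CPM per kb (SD, n = 3). Next came Retnla at 386 ± 70.5 CPM per kb. Retnla was already present in M0 cells at 25.7, 22.5 and 22 CPM, and it reached 276, 226 and 192 CPM with IL-4, a log2 fold change of 3.31 ± 0.13 (adjusted p = 1.32e-08).

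The lectin receptors covered a wide range. Mgl2 went from 0.66, 0.802 and 0.551 CPM to 58.2, 47.4 and 42.5 CPM, a log2 fold change of 6.19 ± 0.15 (adjusted p = 5.9e-10). Its neighbour Clec10a went from 5.2, 5.63 and 6.62 CPM to 21.4, 20.8 and 21.1 CPM, a change of 1.86 ± 0.16. As 15.7% of the 50-base windows of Mgl2 occur unchanged in Clec10a, Mgl2 reads may be counted for Clec10a. Their part in its rise was not tested. Mrc1 had a high level in M0 cells, 105, 101 and 106 CPM, and rose to 346, 295 and 309 CPM, a log2 fold change of 1.61 ± 0.10 (adjusted p = 6.48e-07). On the per-kilobase scale Egr2 (59.9 ± 4.56), Mrc1 (49.7 ± 4.08), Mgl2 (23.6 ± 3.83), Tgm2 (20.4 ± 0.844), Clec10a (7.28 ± 0.103) and Cdh1 (3.96 ± 0.363 CPM per kb, SD, n = 3) followed in M2 cells. The ranges over samples of Mgl2 and Tgm2 overlapped, and those of the other neighbours in this order did not. The value of 185 ± 19.1 CPM per kb computed for Chil4 would lie between Retnla and Egr2 and carries the doubt described below.

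Cdh1 was close to absent in M0 cells and appeared with IL-4. It had 29, 17 and 38 reads (0.58, 0.317 and 0.698 CPM) in M0 and 850, 927 and 1011 reads (19.7, 16.4 and 18.3 CPM) in M2 cells, a log2 fold change of 5.08 ± 0.20 (adjusted p = 2.25e-07). Epcam, an epithelial adhesion gene often seen beside Cdh1, stayed at or under 0.0463 CPM in SE50. Of 3 tested epithelial or mesothelial markers 1 was called higher with IL-4, the keratin Krt18 (0.302 against 0.114 CPM, 1.39 ± 0.37, adjusted p = 0.0152), and its part in the Cdh1 result was not tested. Egr2 and Tgm2 moved least. Egr2 was at 125, 121 and 135 CPM in M0 and 193, 196 and 221 CPM in M2 cells (log2 fold change 0.68 ± 0.07, adjusted p = 4.43e-05). Tgm2 was at 69, 70.2 and 67.1 CPM in M0 and 89.7, 95.6 and 97 CPM in M2 cells (0.45 ± 0.09, adjusted p = 0.00352). For all 9 markers the call at 24 h was kept in each alternative fit that was run. Among markers of other cells, 3 of 4 resident large peritoneal macrophage markers were also higher (median log2 fold change 1.22), as were 1 of 4 tested dendritic cell markers (Zbtb46, 1.69 ± 0.25) and 1 of 2 tested eosinophil markers (Ccr3, 1.91 ± 0.37), while 4 of 7 macrophage and 2 of 5 fibroblast markers were lower. Their part in these results was not tested.

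Chil4 needs separate treatment. It had 48, 53 and 80 reads in M0 and 23845, 25953 and 30394 reads in M2 cells, a log2 fold change of 8.83 ± 0.19 that is close to that of Chil3. The share of Chil4 among the reads of both genes was 7.82, 8.28 and 8.17% in the M2 samples (exact 95% intervals within 7.72 to 8.38%, for counting error only) and between 7.31 and 10.1% in the M0 and M1 samples (intervals within 5.44 to 12.6%). In PE150 the share was 0 in all 12 M0 and M1 libraries and at most 0.0735% in the 24 M2 libraries, which held 0 to 11 Chil4 reads beside 6240 to 16793 Chil3 reads. The Chil4 reads thus took a similar share of the pair's 50-base reads with and without IL-4, and almost none of the longer paired reads. Whether the 50-base reads counted for Chil4 came from Chil4 RNA was not tested, and no direction is drawn for Chil4 from SE50.

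**Figure D2:**
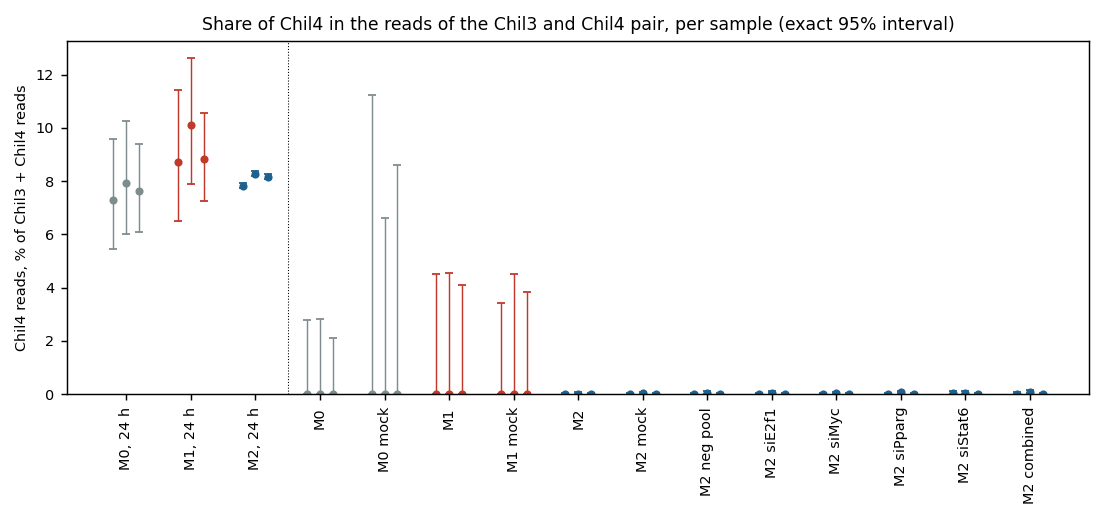
Chil4 reads as a percent of Chil3 plus Chil4 reads in each of the 45 samples, with exact 95% intervals (M0 grey, M1 red, M2 blue). The 9 samples of 50-base reads lie between 7.31 and 10.1% whatever the treatment, and all paired-end libraries lie at or under 0.0735%.

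LPS plus IFN-γ at 24 h moved a large share of all genes tested in both directions. Without Chil4, 4 of 8 markers were lower than in M0 (37.5% of all genes tested were lower). In the same set 1 of 8, Tgm2, was higher (35.4% of all genes tested were higher). With Chil4, for which no direction is drawn, 2 of 9 were called higher. No result about the markers as a set is drawn from these counts. Of the markers of other cells, 4 of 5 fibroblast and 3 of 3 tested epithelial or mesothelial markers were lower (median log2 fold changes -2.10 and -2.64), as was Siglecf (-4.90 ± 0.25), and their part was not tested. Mrc1 fell to 2.46, 1.99 and 1.52 CPM, a log2 fold change of -5.73 ± 0.13 (adjusted p = 2.92e-12). Clec10a fell to 0.405, 0.639 and 1.06 CPM (-3.001 ± 0.21, adjusted p = 7.7e-08). Cdh1 had 0 reads in all 3 M1 samples, which puts it at least 7.25-fold lower than in M0 when a floor of 3 reads per sample is set. Egr2 fell to 58.2, 64.8 and 58.6 CPM (-1.07 ± 0.07).

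Tgm2 went the other way and reached 1261, 969 and 1001 CPM, a log2 fold change of 3.97 ± 0.10 (adjusted p = 6.99e-12). Its level in M1 cells was thus above that in M2 cells in every sample. Chil3 (0.31 ± 0.20, adjusted p = 0.173), Retnla (-0.21 ± 0.12, adjusted p = 0.13) and Mgl2 (-0.40 ± 0.25, adjusted p = 0.166) were not called. Chil4 was the other gene called higher (0.62 ± 0.21, adjusted p = 0.0209), with the same doubt on its reads; the call was lost without M0 replicate 1 (0.54, adjusted p = 0.0635), M0 replicate 2 (0.52, 0.075) or M1 replicate 3 (0.40, 0.129). Chil3 was called higher without M0 replicate 3 (0.54, adjusted p = 0.027), and Retnla was called lower when only the compared groups were fitted (-0.22, adjusted p = 0.0251).

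The PE150 groups gave a further measurement of the IL-4 pattern, in the mock groups 48 h after transfection and without IL-4 since then. Chil4 (0 to 11 reads per library) and Cdh1 (0 to 15 reads) had too few reads for the test, and 7 of 9 markers passed the filter on low counts. Of these 7, 5 were higher in untransfected M2 than in M0 cells (10.7% of all genes tested were higher) and 5 were higher in mock M2 than in mock M0 cells (2.19% of all genes tested were higher). Chil3, Retnla, Mrc1 and Mgl2 were called in both, and 0 of the 7 were called lower in either.

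Cdh1 had 11, 15 and 8 reads in untransfected M0 and 7, 10 and 1 reads in untransfected M2 libraries. With mock treatment it had 2, 6 and 2 reads in M0 and 5, 3 and 3 reads in M2 libraries. The groups overlapped, and no M2 library of PE150 exceeded 0.645 CPM. The higher level in M2 cells of SE50 was thus not seen in PE150.

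Chil3 was high in M2 cells of PE150 too. It was at 9.52, 7.94 and 11.8 CPM in untransfected M0 and 1007, 959 and 875 CPM in untransfected M2 libraries (log2 fold change 6.60 ± 0.21, adjusted p = 3.72e-21). In the mock groups it was at 2.17, 2.9 and 2.68 CPM in M0 and 950.1, 910.4 and 687 CPM in M2 libraries (8.34 ± 0.24, adjusted p = 1.41e-22). The M2 levels of the mock and untransfected libraries overlapped, while all mock M0 libraries lay below all untransfected M0 libraries. The IL-4 difference was larger with mock treatment by 1.74 ± 0.31 on the log2 scale (adjusted p = 5.31e-04), which was the only such call among the 7 markers (2.41% of all genes tested had a larger IL-4 difference).

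Retnla was at 10.03, 12.5 and 10.9 CPM in untransfected M0 and 256, 441 and 222 CPM in untransfected M2 libraries, a log2 fold change of 4.78 ± 0.57 (adjusted p = 1.77e-07). With mock treatment it was at 1.4, 2.42 and 1.11 CPM in M0 and 248, 480.0 and 140 CPM in M2 libraries (7.41 ± 0.71, adjusted p = 1.18e-08). Its M0 level was lower after mock treatment in every library, as for Chil3, but the difference between the IL-4 effects, 2.63 ± 0.95, was not called by edgeR (adjusted p = 0.103). It was called by DESeq2 (2.67, adjusted p = 0.0322) and by edgeR when only the compared groups were fitted (2.64, 0.041). Without the filter on low counts edgeR's adjusted p was 3.64e-15 with nearly the same estimate (2.64). That value is far below the main fit's on the same libraries. Calls without the filter are therefore not taken as support here or below. At 24 h the log2 fold change of Retnla had been 3.31; the experiments were normalized separately and this difference was not tested.

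Mrc1 was 1.25 ± 0.14 higher on the log2 scale without transfection (154, 144 and 121 against 348, 365 and 287 CPM; adjusted p = 6.46e-08) and 0.87 ± 0.14 higher with mock treatment (adjusted p = 1.71e-04). Mgl2 was 2.93 ± 0.30 higher without transfection, from 1.32, 2.61 and 0.614 CPM to 12.1, 11 and 12.3 CPM, and 3.15 ± 0.30 higher with mock treatment. Its log2 fold change at 24 h had been 6.19.

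Clec10a did not move with its neighbour in PE150. It was at 16, 15 and 13.4 CPM in untransfected M0 and 9.66, 12.7 and 10.1 CPM in untransfected M2 libraries (-0.45 ± 0.21, adjusted p = 0.131), where all M2 libraries lay below all M0 libraries. It became a called decrease when all genes with at least 1 count were kept (adjusted p = 0.0198) and when only the compared groups were fitted (0.0318). With mock treatment its log2 fold change was -0.02 ± 0.21 (adjusted p = 0.973).

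Egr2 was called without transfection (128, 142 and 142 against 162, 170.4 and 181 CPM; 0.32 ± 0.11, adjusted p = 0.0397) and not with mock treatment (0.24 ± 0.11, adjusted p = 0.239). Tgm2 was called with mock treatment (126, 132 and 153 against 186, 199 and 167 CPM; 0.42 ± 0.11, adjusted p = 0.0282) and not without transfection (0.24 ± 0.11, adjusted p = 0.132). The differences between the treatments were -0.08 ± 0.16 for Egr2 and 0.18 ± 0.16 for Tgm2 and were not called. Both calls were near the threshold. That of Egr2 was lost on leaving out any 1 of the 6 libraries except M2 replicate 1 (highest adjusted p = 0.155, without M0 replicate 1), and that of Tgm2 on leaving out replicate 1 or 2 of either mock group (highest adjusted p = 0.155, without M2 mock replicate 2) or when only the compared groups were fitted (0.105). Tgm2 was called without transfection when M2 replicate 3 was left out (0.34, adjusted p = 0.0486).

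Fibroblast markers summed to between 127 and 249 CPM in untransfected M0, 113 and 383 CPM in untransfected M2, 192 and 302 CPM in mock M0 and 174 and 279 CPM in mock M2 libraries. These ranges overlapped. Epithelial or mesothelial markers moved with IL-4 without transfection, where 3 of 4 tested were called higher (median log2 fold change 1.30) and the sum was 5.71 to 8.71 CPM in M0 and 8.08 to 25.4 CPM in M2 libraries; with mock treatment 0 of 4 were called. Siglecf was higher in M2 than in M0 cells with mock treatment (0.79 ± 0.21, adjusted p = 0.0288), and its IL-4 difference was larger than without transfection (1.09 ± 0.29, adjusted p = 0.0221). Of 3 tested dendritic cell markers only 1 was called higher in both, Zbtb46 (0.90 ± 0.32 and 1.18 ± 0.30). Under the replicate block 1 of the 3 was called lower without transfection. The part of these markers in the results was not tested. Without transfection, LPS plus IFN-γ cells of PE150 had 6 of 7 markers lower than M0 (28.7% of all genes tested were lower), namely all but Tgm2, and Tgm2 higher (29.0% of all genes tested were higher). Retnla was at 0.366, 0.402 and 0.0631 CPM in these M1 libraries, a log2 fold change of -5.30 ± 1.17 (adjusted p = 2.69e-04), and Tgm2 was at 612, 835 and 893 CPM (2.61 ± 0.12). Other lists fell too: 5 of 7 macrophage markers were lower (summed level 6642 to 7786 CPM, against 16475 to 16833 CPM in M0), as were 4 of 5 fibroblast markers (33.3 to 96 CPM), 4 of 4 tested epithelial or mesothelial markers (median -4.12), 5 of 5 B cell markers (median -4.20) and Siglecf (-4.28 ± 0.30). Their part in the results was not tested.

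**Figure D3:**
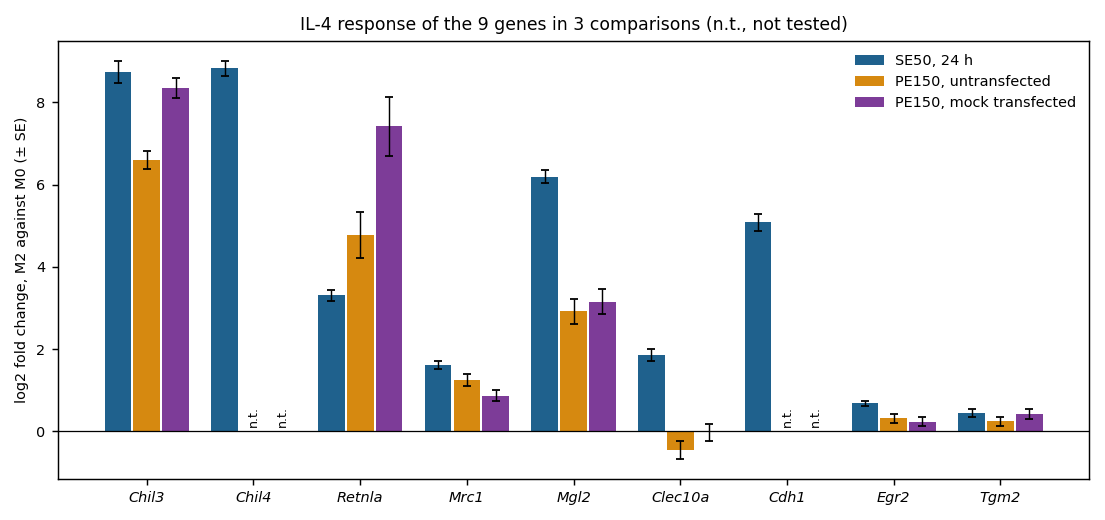
Log2 fold change of M2 against M0 cells for each marker (bars, with SE from edgeR) in SE50 at 24 h, in PE150 without transfection and in PE150 with mock treatment; n.t. marks genes with too few reads for the test. Chil3, Retnla, Mrc1 and Mgl2 are above 0 in all 3 comparisons, while Clec10a is at 1.86 in SE50 and at -0.45 and -0.02 in PE150.

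Transfection reagent and control siRNA were compared in M2 cells to see what delivery alone did. Between mock and untransfected M2 cells, 0 of 7 markers were called (1.77% of all genes tested were), and between neg siPool and mock, 0 of 7 were called (11.7% of all genes tested were). At an unadjusted p under 0.05, Tgm2 passed in both, and its log2 differences were 0.29 ± 0.11 (adjusted p = 0.341) and 0.30 ± 0.11 (adjusted p = 0.0864). Its level stepped from 157, 166 and 130 CPM without transfection to 186, 199 and 167 CPM with mock treatment and 235, 229 and 215 CPM with the neg siPool, and no groups overlapped. DESeq2 called 0 of 7 in both, and the rise of Tgm2 with the neg siPool was called in edgeR without the filter (adjusted p = 0.0199) or with the compared groups only (0.0345). Siglecf was higher with the neg siPool than with mock (35.9 against 19.2 CPM, 0.90 ± 0.19, adjusted p = 0.00175). Of the lists counted below, 6 of 28 tested genes of the IL-4 response and 4 of 12 receptor and signalling genes were also called higher with the neg siPool, and 0 lower in either. Of the 4 siRNA targets 1 was called lower, and E2f1 with mock was at 134% of its mean with the neg siPool.

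The knockdowns were then compared with the neg siPool, which all 5 share as their control. The methods name Dharmacon for the Myc pool, siTools Biotech for the E2f1, Pparg and Stat6 pools, and no supplier for the neg siPool. Target and supplier thus cannot be told apart for the Myc siRNA, which the combined pool also holds. Lower levels of several markers were seen with the Myc pool and the combined pool. With the Myc pool 5 of 7 markers were lower (15.6% of all genes tested were lower) and 1, Tgm2, was higher (13.9% were higher). With the combined pool 3 of 7 were lower (13.9% of all genes tested were lower) and Tgm2 was again higher (12.5% were higher). Under the replicate block 5 of 7 were lower with both pools (18.0% of all genes tested for Myc, 15.9% for combined). With the Pparg pool 0 of 7 were lower (3.03% of all genes tested were) and 1, Egr2, was higher (2.71% were higher). With the E2f1 pool (0.910% of all genes tested were called) and the Stat6 pool (1.51%) 0 of 7 were called in either direction. DESeq2 also called 0 of 7 with these 2 pools. At an unadjusted p under 0.05, 0 of 7 passed with the E2f1 pool and 1 of 7, Mrc1, with the Stat6 pool.

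Mgl2 and Clec10a fell most against the neg siPool. Mgl2 was at 13.3, 11.54 and 9.49 CPM with the neg siPool, 3.21, 4.58 and 1.49 CPM with the Myc pool and 4.13, 3.97 and 3.22 CPM with the combined pool. The log2 fold changes were -1.86 ± 0.26 (adjusted p = 2.39e-06) and -1.60 ± 0.26 (adjusted p = 2.39e-05), and the mean levels were 27% and 33% of that with the neg siPool. Clec10a was at 12.8, 17.4 and 15.3 CPM with the neg siPool, 3.6, 6.51 and 4.03 CPM with the Myc pool and 3.81, 5.54 and 3.65 CPM with the combined pool. Its changes were -1.68 ± 0.22 (adjusted p = 9.59e-07) and -1.79 ± 0.23 (adjusted p = 5.01e-07). No knockdown library of these groups overlapped with the neg siPool. Clec10a had not been called higher with IL-4 in PE150. Its means of 4.71 (Myc pool) and 4.33 CPM (combined pool) lay below the 14.7 CPM of mock M0 cells. Its fall is thus not a loss of an IL-4 rise seen in PE150. The Mgl2 means of 3.09 and 3.77 CPM lay above the 1.45 CPM of mock M0 cells.

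Chil3 lost less in relative terms. It went from 1011, 864 and 765 CPM to 587, 516 and 387 CPM with the Myc pool (-0.82 ± 0.16, adjusted p = 1.91e-04) and to 506, 591 and 448 CPM with the combined pool (-0.77 ± 0.16, adjusted p = 4.43e-04). It thus remained far above the 2.17 to 2.9 CPM of mock M0 cells. The combined and Myc groups were at 58.5 ± 8.2% and 56.4 ± 11.49% of the neg siPool mean (SD, n = 3).

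Retnla was uneven between replicates in all groups of M2 cells. Replicate 2 was the highest and replicate 3 the lowest in 8 of 8 M2 groups of PE150, and the ratio of replicate 2 to replicate 3 ranged from 1.98 to 3.79. With the neg siPool it was at 180.5, 368 and 139 CPM, with the Myc pool at 76.3, 141 and 48.8 CPM, and with the combined pool at 83.9, 166 and 59.5 CPM. Against the same-numbered neg siPool library these were 42.3, 38.2 and 35.1% with the Myc pool and 46.5, 45.2 and 42.8% with the combined pool. Without a term for the replicate number the log2 fold changes were -1.37 ± 0.47 (adjusted p = 0.0254) and -1.15 ± 0.46 (adjusted p = 0.0661, not called). With the replicate number as a block they were called for both, with adjusted p = 5.97e-09 for Myc and 1.35e-07 for the combined pool. Without the block, the Myc call was lost when Myc replicate 1 (-1.27, adjusted p = 0.0816), Myc replicate 3 (-1.08, 0.135) or neg siPool replicate 2 (-0.85, 0.215) was left out, and with DESeq2 (adjusted p = 0.064). The combined pool was called without combined replicate 2 (-1.68, adjusted p = 0.0212) or neg siPool replicate 3 (-1.41, 0.0439).

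**Figure D4:**
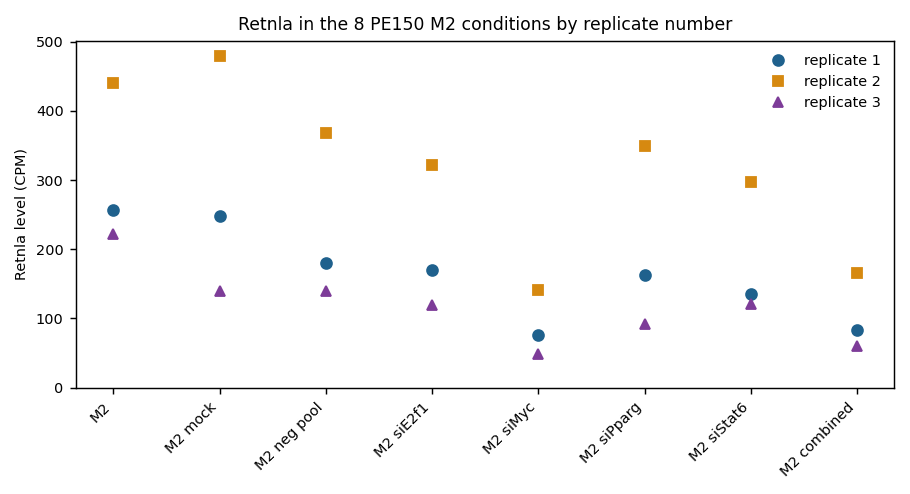
Retnla level in CPM in the 8 groups of M2 cells of PE150, with 1 point per library and 1 symbol per replicate number. Replicate 2 lies highest and replicate 3 lowest in every group, and the Myc and combined groups lie lowest for each number.

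Mrc1 was at 361, 338 and 361 CPM with the neg siPool, 312, 261 and 248 CPM with the Myc pool (-0.37 ± 0.14, adjusted p = 0.0421) and 299, 285 and 249 CPM with the combined pool (-0.35 ± 0.14, adjusted p = 0.0604, not called; DESeq2 gave 0.0491). Under the replicate block both were called (adjusted p = 0.0104 and 0.0175), which gave 5 of 7 markers lower with the combined pool (15.9% of all genes tested were lower in that fit). Without the block, the Myc call of Mrc1 was lost on leaving out Myc replicate 2 or 3 or any neg siPool replicate (highest adjusted p = 0.166). With the Stat6 pool Mrc1 was at 303, 267 and 244 CPM, all below the neg siPool libraries, with a change of -0.38 ± 0.14 that was not called (adjusted p = 0.186). It was called without the filter on low counts (adjusted p = 0.00565) and with only the compared groups fitted (0.0313).

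Tgm2 was the marker that went up. It was at 235, 229 and 215 CPM with the neg siPool, 353, 366 and 336 CPM with the Myc pool (0.64 ± 0.11, adjusted p = 5.59e-05) and 328, 296 and 292 CPM with the combined pool (0.43 ± 0.11, adjusted p = 0.00413). Tgm2 was also the marker that LPS plus IFN-γ raised, to 780 ± 148 CPM (SD, n = 3) in untransfected M1 cells. Egr2 did not pass with either pool (-0.01 ± 0.11 and -0.18 ± 0.11). With the Pparg pool it rose from 141, 156 and 137 CPM to 189, 199 and 204 CPM (0.45 ± 0.11, adjusted p = 0.011), and this call was lost without Pparg replicate 3 (0.42, adjusted p = 0.0615), neg siPool replicate 1 (0.43, 0.0547) or neg siPool replicate 3 (0.41, 0.0714).

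With the Stat6 pool, 0 of the other 6 tested markers were called. Chil3 differed by -0.03 ± 0.16, Retnla by -0.31 ± 0.46, Mgl2 by -0.47 ± 0.24 and Clec10a by 0.37 ± 0.20 on the log2 scale, all uncalled. All 3 Mgl2 libraries and all 3 Egr2 libraries (-0.14 ± 0.11) lay below those with the neg siPool, and all 3 Clec10a libraries lay above. Siglecf was lower with the Stat6 pool (19.1 against 35.9 CPM, -0.91 ± 0.19, adjusted p = 0.00986), and its part was not tested. A p above the threshold does not show that the pool had no effect. Chil4 and Cdh1 stayed at 0 to 11 reads per library in all M2 groups of PE150, so their loss could not be measured.

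Markers of other cells beside these results were as follows. Epithelial or mesothelial markers summed to 17.5 to 22.2 CPM with the neg siPool, 7.75 to 9.18 CPM with the Myc pool and 7.95 to 12.1 CPM with the combined pool, and fibroblast markers to 275 to 398, 242 to 342 and 245 to 402 CPM. The 7 macrophage markers summed to 12428 to 13475 CPM with the neg siPool, 11632 to 11809 CPM with the Myc pool and 11814 to 12796 CPM with the combined pool. Conventional dendritic cell markers, relevant because these cells can carry Mgl2 and Clec10a, summed to 3.31 to 4.60 CPM with the neg siPool, 2.79 to 3.92 CPM with the Myc pool and 3.41 to 4.20 CPM with the combined pool. Of 3 tested, 1 was called lower with the Myc pool (Zbtb46, -0.85 ± 0.29, adjusted p = 0.0273; 2 under the replicate block) and 0 with the combined pool (1 under the block), with medians of -0.85 and -0.67. Of 3 tested neutrophil markers, 2 were lower with each of these pools. With the Myc pool 5 of 7 macrophage markers and 3 of 4 tested epithelial or mesothelial markers were themselves called lower, and with the combined pool 1 of 7 and 1 of 4 (4 of 7 and 2 of 4 under the replicate block). The part of these shifts in the results was not tested.

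**Figure D5:**
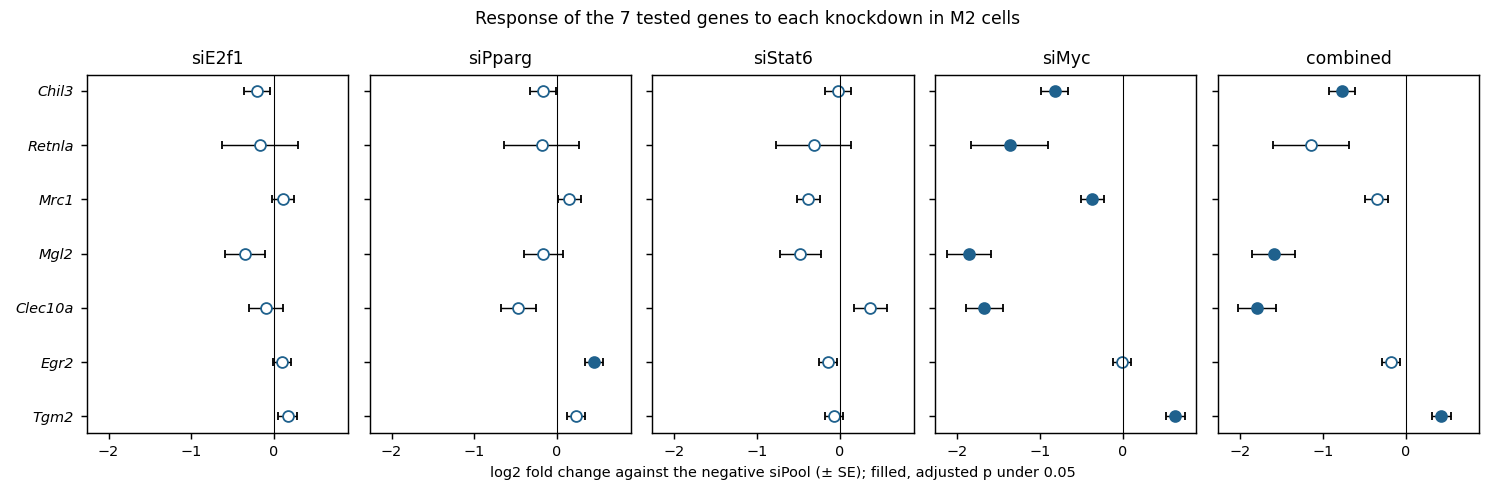
Log2 fold change ± SE against the neg siPool for the 7 tested markers in each knockdown group of M2 cells (filled points, adjusted p under 0.05 in edgeR without a block). Mgl2 and Clec10a lie at -1.60 or lower with the Myc and combined pools, and Tgm2 lies above 0 in both.

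The combined pool was set against each single pool as the design allows, with the uneven lowering of the targets given above. Between the combined and the Myc pool 0 of 7 markers were called (0.0494% of all genes tested were). In that comparison 0 of 7 passed at an unadjusted p under 0.05, DESeq2 called 0 of 7, and the log2 differences ranged from -0.20 ± 0.11 for Tgm2 to 0.26 ± 0.29 for Mgl2. Against the E2f1 pool, 4 of 7 were lower (11.3% of all genes tested were lower): Chil3, Mrc1, Mgl2 and Clec10a. Against the Pparg pool, 5 of 7 were lower (10.3% were lower), the same 4 and Egr2. Against the Stat6 pool, 3 of 7 were lower (11.8% were lower), Chil3, Mgl2 and Clec10a, and Tgm2 was higher (10.4% were higher).

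Clec10a gave the largest of these differences, -2.17 ± 0.23 against the Stat6 pool (19.6 against 4.33 CPM on average, adjusted p = 2.09e-08). Egr2 differed by -0.63 ± 0.11 from the Pparg pool (adjusted p = 1.18e-04). Under the replicate block Retnla was also lower than with the E2f1 (-0.99, adjusted p = 2.55e-06), Pparg (-0.91, 1.61e-05) and Stat6 (-0.85, 2.93e-05) pools, and the shares of all genes tested that were lower in those fits were 13.3, 12.7 and 14.0%. The calls of Chil3 and Mrc1 against the E2f1 pool were lost without combined replicate 3 (-0.48, adjusted p = 0.0615, and -0.39, 0.0856), and that of Mrc1 also without E2f1 replicate 1 (-0.41, 0.0682). Against the Pparg pool they were lost without combined replicate 3 (-0.51, adjusted p = 0.0573, and -0.43, 0.0681), and that of Chil3 also without Pparg replicate 1 (-0.50, 0.054) or 2 (-0.52, 0.0502).

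Other genes of the IL-4 response were counted from a list of 30, of which 29 were found. At 24 h 24 of 29 were higher and 1 lower (13.5% and 14.4% of all genes tested), with a median log2 fold change of 2.13. The largest rises were those of Cish, a STAT-induced inhibitor of cytokine signalling (6.63 ± 0.17), Arg1, the arginase of alternative activation (6.42 ± 0.46), and Pdcd1lg2, the PD-1 ligand PD-L2 (5.65 ± 0.19), and Il1rn, the IL-1 receptor antagonist, was lower (-0.47 ± 0.09). In PE150, 13 of 28 tested were higher and 0 lower without transfection (10.7% and 9.19% of all genes tested). With mock treatment 9 were higher and 1 lower (2.19% and 1.64%), the latter again Il1rn (-0.71 ± 0.17). The rises were led in both by Cish (2.53 ± 0.65 and 2.59 ± 0.65), Pdcd1lg2 (2.504 ± 0.49 and 2.07 ± 0.46) and Flt1, a VEGF receptor (1.72 ± 0.31 and 1.81 ± 0.28). Arg1 was not among them (-0.32 ± 0.69 and 2.65 ± 0.88, adjusted p = 0.799 and 0.0912).

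In the knockdowns, 11 of 28 of these genes were lower and 2 higher with the Myc pool (15.6% and 13.9% of all genes tested). With the combined pool 10 were lower and 2 higher (13.9% and 12.5%). No result about the list is drawn from the counts of higher genes with these 2 pools. Before any knockdown, 6 of the 28 were higher with the neg siPool than with mock. The largest decreases with the Myc pool were those of Pdcd1lg2 (-1.63 ± 0.42), the collagenase Mmp13 (-1.03 ± 0.14) and the transcription factor Batf3 (-0.93 ± 0.18), and with the combined pool those of Pdcd1lg2 (-1.15 ± 0.41), the kinase Matk (-1.01 ± 0.14) and Mmp13 (-0.93 ± 0.14). Il1rn (0.67 ± 0.16 and 0.93 ± 0.16) and the coactivator Ppargc1b (0.79 ± 0.18 and 0.81 ± 0.19) were higher with both. With the Pparg pool 6 were higher and 2 lower (2.71% and 3.03% of all genes tested). Cish (1.67 ± 0.37), Socs1, a further inhibitor of cytokine signalling (0.97 ± 0.27), and Il1rn (0.80 ± 0.16) led the rise. The fatty acid binding protein Fabp4 (-0.39 ± 0.11) and the inhibitory receptor Cd200r1 (-0.23 ± 0.07) were lower. With the E2f1 and Stat6 pools 0 of 28 were called (0.910% and 1.51% of all genes tested were). Under the replicate block 14 were lower and 3 higher with the Myc pool (18.0% and 15.9% of all genes tested). With the combined pool 14 were lower (15.9%) and 2 higher (share of all genes not given). With the Pparg pool 3 were lower and 8 higher (4.15% and 4.09%), and with the E2f1 pool 1 was lower (1.17%). With the Stat6 pool, whose numbers were not taken as pairs, the block gave 3 lower and 0 higher. For all genes tested the share with that pool is given only without the block, at 1.51% in both directions together. Arg1 changed by between -0.43 ± 0.67 and 0.24 ± 0.65 in the 5 knockdowns and was not called in any.

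The receptor and its signalling chain were counted from a further list. Of 12 genes, 1 was higher and 6 lower at 24 h, when 13.5% of all genes tested were higher and 14.4% lower. Jak2 was up (0.74 ± 0.09), and Irs2 (-0.61 ± 0.16), Il13ra1 (-0.56 ± 0.10) and Jak3 (-0.54 ± 0.14) had the largest decreases. In PE150, Il4ra, the IL-4 receptor chain, was lower in M2 than in M0 cells without transfection (-0.27 ± 0.09, adjusted p = 0.0452) and with mock treatment (-0.38 ± 0.09, adjusted p = 0.018). With the Myc pool Il2rg, the common γ chain, was higher (0.80 ± 0.12) and Il13ra1 (-0.34 ± 0.12) and Jak1 (-0.25 ± 0.05) were lower. Of 28 family relatives of the markers, 14 were tested at 24 h and 0 were higher, while 3 were lower, against the same 14.4% of all genes: Cdh3 (-0.99 ± 0.32), F13a1 (-0.74 ± 0.20) and Ly75 (-0.24 ± 0.08).

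Over the 12 group means of PE150 the tested markers differed in how alike their patterns were. As a description over means that share libraries and depth, Pearson's r of log2 CPM was 0.97 between Retnla and Mgl2, 0.97 between Mrc1 and Egr2 and 0.95 between Chil3 and Retnla, while Clec10a reached at most 0.60 (with Mgl2) and Tgm2 was negative with every other marker, from -0.27 with Chil3 to -0.83 with Egr2. Among all other genes, those most like each marker were Pdrg1 and Atp6v1h for Chil3 (0.95 and 0.94), Lrrc32 and Angptl2 for Retnla (0.97 and 0.96), Clec4a3 and Ccl9 for Mrc1 (0.995 and 0.994), and Sdha and Lrrc32 for Mgl2 (0.99 and 0.98). For Clec10a they were P2rx4 and Tpt1 (0.96 and 0.95), for Egr2 Arrb1 and Igf1 (0.995 and 0.994), and for Tgm2 Gm9790 and Dctn3 (0.99 and 0.99).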

How the data were processed

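RNA was measured in 54 libraries (18 of SE50 and 36 of PE150). Per the labels and the study's methods, the authors trimmed reads with Trimmomatic, aligned them with TopHat2 to GRCm38 and counted them per gene with featureCounts; versions, annotation release, strand and multi-mapping settings are not given in the sources used here. The deposited values are raw read counts for 39179 Ensembl genes, of which 37607 matched a symbol. Technical replicates were summed per mouse; the chi-square per gene between their counts was 1.07 to 1.10, against 3.63 to 52.4 between mice of a group. In R 4.3.3, edgeR 4.0.16 (filterByExpr, TMM, quasi-likelihood F test, 1 coefficient per group, no block) was fitted to all groups of an experiment. CPM used the same scaling. The test was run on simulated counts with known changes of 1 and 2 on the log2 scale: it recovered 84.7% and 100% of them for M2 against M0 in SE50 (15976 genes, 6 unchanged genes called) and 84.8% and 97% for the Myc pool against the neg siPool (13781 genes, 16 unchanged genes called). The simulated counts had the same spread for every gene and no effect of the replicate number. Recovery for genes with a wider spread, such as Retnla in PE150 (229 ± 122 CPM with the neg siPool, SD), was not tested. Exact binomial intervals and the floor of 3 reads cover counting error only, since reads without molecular identifiers are not independent molecules.

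Replicate numbers in SE50 name the same mouse. In PE150 nothing in the labels ties the numbers together, and nothing says that the libraries came from separate animals, so p-values there measure the spread between libraries. Deviations of same-numbered libraries from their group means correlated over 0.1 in all 3 pairs for the neg siPool with the combined (0.17 to 0.29), E2f1, Myc and Pparg pools, for the combined pool with each single pool, and for mock with untransfected M2 cells. For these comparisons the numbers were taken as pairs, a choice made from the same data as the tests. The block was a common term per replicate number over all 36 PE150 libraries, so groups whose numbers did not pair also entered it. They were not for the Stat6 pool with the neg siPool (lowest 0.04), the neg siPool with mock, or the M2 or M1 with M0 comparisons. The combined pool passed this rule with both the Stat6 pool (lowest 0.23) and the neg siPool. Whether the Stat6 and neg siPool libraries pair is therefore not settled. Under the block 0 of 7 markers were called with the Stat6 pool.

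The markers and lists were chosen with earlier results of these data known. Named genes were the 9 markers, the siRNA targets, Arg1, the 3 called genes of each list with the largest change in each direction, and the 2 genes with the highest r to each marker (mean log2 CPM of at least 2, prior count 2). Alternatives were DESeq2 1.42.0, RLE scaling, no filter, the replicate block, a fit of the compared groups only, technical replicate 1 only, the mock group as the knockdown reference, and leaving out each of 9 and 36 samples.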

Additional observations from a re-analysis of the deposited data

Results flagged for a closer look

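The IL-4 difference of Chil3 differed between the mock and untransfected PE150 groups by 1.74 ± 0.31 on the log2 scale (mock minus untransfected; edgeR's test of the difference itself, adjusted p = 5.31e-04). The mean level of Chil3 was 9.75 CPM in untransfected and 2.58 CPM in mock M0 cells, and 947 CPM in untransfected and 849 CPM in mock M2 cells. The cause was not tested.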

How the results depend on the processing

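Of 658 alternative values for single markers called in the report, 624 kept their call, 34 lost it and 0 changed sign. Of 788 for markers not called, 706 stayed so, 37 were called and 45 changed sign, and of 400 counts of called markers 371 stayed within 1.5 times. The cause of these shifts was not tested unless the setting itself shows it. With technical replicate 1 only, 1 marker was higher with LPS plus IFN-γ at 24 h. With no filter on low counts, 1 was lower with IL-4 in PE150 without transfection, 2 had a larger IL-4 difference with mock treatment, 1 was higher with the neg siPool than with mock, 5 were lower with the combined pool, 1 with the Pparg pool and 1 with the Stat6 pool, and 1 was higher with the combined than with the E2f1 pool. With only the compared groups fitted, these counts were 1, 2, 1, 5, 1 (Stat6) and 1. For the reason given with Retnla, calls without the filter are not taken as support. With the replicate block, 2 markers had a larger IL-4 difference with mock treatment (Retnla 2.65, adjusted p = 7.61e-07, edgeR, where the numbers do not pair the libraries) and 5 were lower with the combined pool; the calls it changed where the numbers pair the libraries are given in the report, and it changed no other call of a marker. With DESeq2, 2 had a larger IL-4 difference. With mock as the reference, 1 was higher with the E2f1 pool and 2 with the Pparg pool, and with the Stat6 pool Chil3 (0.026) and Tgm2 (0.23) changed sign.

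Leaving out 1 library at a time gave 1 to 3 markers higher with LPS plus IFN-γ at 24 h, 3 to 4 lower with the Myc pool, 0 to 1 higher with the Pparg pool, 2 to 5 lower with the combined than with the E2f1 pool and 3 to 5 lower than with the Pparg pool. Log2 differences that were not called and changed sign ranged as follows. For the IL-4 difference between mock and untransfected cells they were -0.45 to 0.60 (Mgl2) and -0.27 to 0.052 (Egr2), and for IL-4 with mock treatment -0.21 to 0.27 (Clec10a). For mock against untransfected M2 cells they were -0.66 to 0.27 (Retnla), -0.14 to 0.064 (Mrc1) and -0.026 to 0.29 (Mgl2), and for the neg siPool against mock -0.080 to 0.14 (Chil3), -0.86 to 0.24 (Retnla) and -0.13 to 0.25 (Clec10a). For the E2f1 pool they were -0.66 to 0.35 (Retnla) and -0.21 to 0.013 (Clec10a), for the Myc pool -0.047 to 0.049 (Egr2), for the Pparg pool -0.28 to 0.0053 (Chil3), -0.85 to 0.34 (Retnla) and -0.34 to 0.013 (Mgl2), and for the Stat6 pool -0.20 to 0.095 (Chil3), -0.84 to 0.21 (Retnla) and -0.15 to 0.014 (Tgm2). For the combined against the Myc pool they were -0.099 to 0.19 (Chil3), -0.31 to 0.72 (Retnla), -0.045 to 0.12 (Mrc1), -0.042 to 0.65 (Mgl2) and -0.34 to 0.20 (Clec10a), and against the Stat6 pool -0.037 to 0.12 (Mrc1) and -0.087 to 0.013 (Egr2). Chil4 and Cdh1 had too few reads in PE150 for the test, with mean levels in untransfected M2 cells of 0.178 and 0.404 CPM against 521 and 18.1 CPM in SE50.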
